A study of Homo sapiens with 2 samples.

Results

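The desmosome genes described here are 9 genes that encode the cadherins, plakophilins and plaque proteins of desmosomes: DSG2, DSG3, DSC2, DSC3, DSP, JUP, PKP1, PKP2 and PKP3. They were chosen by symbol from the 14812 named genes of a whole-transcript array table, and all 9 were measured, each by 1 feature (a set of probes summarised to 1 value). RNA came from MCF-10A, an established, spontaneously immortalised and non-tumorigenic human mammary epithelial cell line, grown as 1 line that stably expressed ARHGAP4 fused to EGFP (EGFP-ARHGAP4) and 1 line that stably expressed EGFP alone (EGFP vector). ARHGAP4 is a GTPase-activating protein. Each line was measured on 1 array, so no difference below has a replicate check, a standard error or a p-value, and differences between the lines cannot be told apart from differences between any 2 cultures. Whether either line is a clone or a pool of transduced cells, and which promoter drove the transgenes, the labels do not say.

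Desmosomes are button-like junctions that tie the keratin filaments of neighbouring epithelial cells together. Desmogleins (DSG) and desmocollins (DSC) are calcium-dependent cadherins that meet between the cells, and their tails bind the armadillo-repeat proteins plakoglobin (JUP) and plakophilins (PKP), which bind desmoplakin (DSP), the plakin that holds the keratins. In stratified and glandular epithelia the isoforms are distributed by layer: DSG3 and DSC3 are typical of basal cells, DSG1 and DSC1 of differentiated upper layers of the epidermis, and DSG2 and DSC2 occur in simple epithelia as well.

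Values are deposited log2 expression values, and each difference is the EGFP-ARHGAP4 value less the EGFP vector value on that log2 scale. Values of different genes come from different probes, so differences are between arrays for the same gene, and no gene is called more abundant than another. A gene passed the level filter when the higher of its 2 values reached 4.02, the median of all gene-level values, which 7685 genes did. Those genes had a median difference of -0.10, with quartiles of -0.29 and 0.12. The introduced gene, ARHGAP4, stood at 6.68 in the EGFP-ARHGAP4 array and 4.49 in the EGFP vector array, in the direction of the labels. Markers fitted the labelled cell type in part. The epithelial genes KRT5, KRT8, KRT18 and EPCAM lay above the filter in both arrays, as did KRT14, a keratin of basal epithelial cells. The luminal marker KRT19 and the basal marker MYLK lay below it in both arrays. CDH1, TP63 and KRT17 were not analysed here. All 3 measured fibroblast markers (THY1, DCN and LUM) and all 3 measured melanocyte markers lay below the filter in both arrays. Of the endothelial markers, VWF lay below the filter and CLDN5 just above it, at 4.32 in the EGFP-ARHGAP4 array and 4.31 in the EGFP vector array. Of the immune markers, CD68 and CD14, which are not exclusive to immune cells, were measured and lay above it. In bulk RNA, fewer cells of a kind and less RNA per cell cannot be told apart.

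DSG3 was the only desmosome gene that differed by at least 0.5 between the arrays, and it was higher in EGFP-ARHGAP4 cells. The other 8 lay on both sides of 0 by smaller amounts: the other cadherins and DSP were lower, and JUP and the plakophilins were higher. A log2 difference of 0.5 (1.41-fold) in the higher direction was reached by 4.25% of all genes and by 5.15% of genes past the filter, and the members' count rests on a single gene. In the lower direction 6.47% of all genes and 9.81% of genes past the filter reached it, and no member did. Among all genes, 0.581% were higher and 0.486% lower by at least 1 (2-fold), which no member reached. At 0.3 the shares were 11.8% higher and 17.5% lower, and in the deposited values DSG3 was still the only member beyond it. After quantile normalization and after loess JUP passed 0.3 as well, at 0.38 and 0.40. The median difference of the 9 members was 0.12, against -0.03 over all 14812 genes. Over the 8 members past the filter it was -0.01, against -0.10 over all genes past the filter, so the sign of the median changed when PKP1, the member below the filter, was left out.

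**Figure D1:**
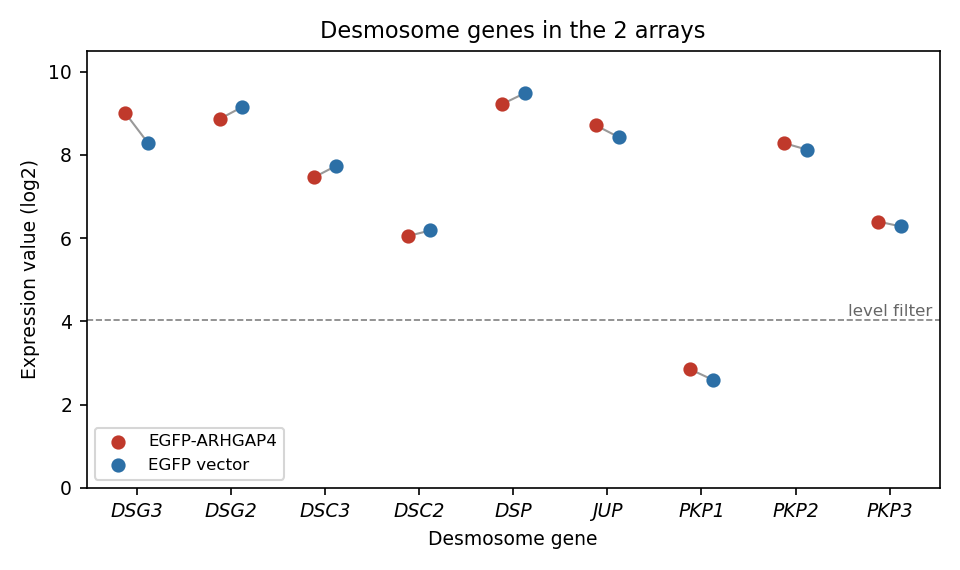
Deposited log2 expression value (vertical axis) of each of the 9 desmosome genes in the EGFP-ARHGAP4 array (red, left of each pair) and the EGFP vector array (blue, right); 1 array per group, no error bars. DSG3 has the widest gap, 8.997 against 8.28, and PKP1 alone lies below the dashed level filter of 4.02.

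Among the desmogleins, DSG3 is the cadherin of the basal layers of stratified epithelia and the main autoantigen of pemphigus vulgaris. It stood at 8.997 in the EGFP-ARHGAP4 array and 8.28 in the EGFP vector array. The difference of 0.71, or 1.64-fold, was matched or exceeded by 2.42% of the genes past the filter. DSG2, the most widely expressed desmoglein, which is also the desmoglein of heart muscle, stood at 8.86 in the EGFP-ARHGAP4 array and 9.15 in the EGFP vector array. Its difference of -0.29 was the lowest of the 9 members. It was nonetheless an ordinary value, since 25.6% of genes past the filter were at least as low.

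DSC3 and DSC2 are the desmocollins that pair with the desmogleins in basal and in simple epithelia. DSC3 stood at 7.46 in the EGFP-ARHGAP4 array and 7.74 in the EGFP vector array, a difference of -0.28. DSC2 stood at 6.05 in the EGFP-ARHGAP4 array and 6.18 in the EGFP vector array, a difference of -0.13 that lay close to the median of genes past the filter. Both desmocollins were thus below 0, as DSG2 was, and DSG3 alone of the 4 cadherins was above 0.

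The 4 cadherin genes differed unequally within the same arrays, a comparison that a common scaling factor for an array cannot alter. DSG3 and DSG2 had the highest and the lowest difference of all members, so their pair gives the widest gap by choice. The difference of DSG3 exceeded that of DSG2 by 1.003 on the log2 scale. The signal of DSG3 relative to that of DSG2 was thus 2.004-fold higher in EGFP-ARHGAP4 cells than in EGFP vector cells. Relative to DSC3 it was 1.996-fold higher, and relative to DSC2 it was 1.80-fold higher.

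All desmogleins and desmocollins lie side by side in 1 cluster on chromosome 18, in the order DSC3, DSC2, DSC1, DSG1, DSG4, DSG3 and DSG2, which were all measured. Of these 7 genes, 6 were below 0, and DSG3 stands between DSG4 at -0.13 and DSG2. Only 47.1% of all genes, and 38.6% of genes past the filter, were at or above 0. DSC1, DSG1 and DSG4, the cadherins of the upper epidermis and of hair, lay below the level filter in both arrays. DSC1 stood at 2.36 in the EGFP-ARHGAP4 array and 2.39 in the EGFP vector array. DSG1 stood at 1.75 in the EGFP-ARHGAP4 array and 2.02 in the EGFP vector array, a difference of -0.27. DSG4 stood at 2.30 in the EGFP-ARHGAP4 array and 2.43 in the EGFP vector array. At such levels array values narrow towards background. The nearest measured genes on either side also differed by less than 0.5: CHST9 at 0.33 and MIR302F at -0.28 before the cluster, and DSG2-AS1 at -0.07 and TTR at 0.17 after it. DSG2-AS1, an antisense gene that overlaps the end of DSG2, stood at 3.14 in the EGFP-ARHGAP4 array and 3.21 in the EGFP vector array. CHST9, MIR302F and DSG2-AS1 lay below the filter in both arrays. TTR reached it only in the EGFP-ARHGAP4 array, at 4.11.

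**Figure D2:**
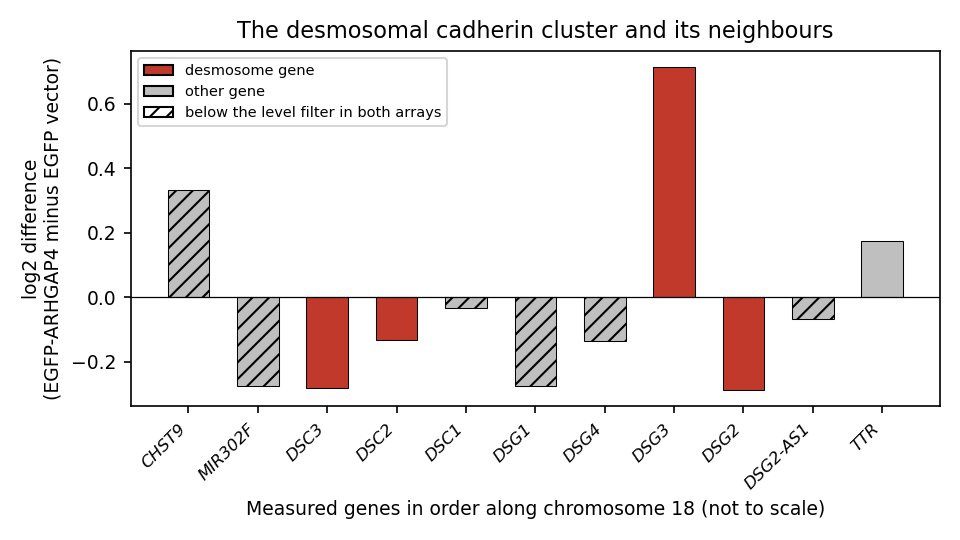
Log2 difference, EGFP-ARHGAP4 minus EGFP vector (vertical axis), of the 7 measured cadherin genes of the cluster on chromosome 18 and the 2 nearest measured genes on each side, in genomic order but not to scale; 1 array per group. Red bars are desmosome genes described here, grey bars other genes, and hatched bars genes below the level filter in both arrays. DSG3 at 0.71 stands above 0 between DSG4 at -0.13 and DSG2 at -0.29.

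The region around the cluster did not share the difference of DSG3. The 118 genes of chromosome 18 past the filter had a median of -0.17, with quartiles of -0.37 and -0.002. Around DSG3, the 17 nearest such genes that are not members had the same median of -0.17. DSG2, DSC3 and DSC2 therefore lay within the interquartile range of their chromosome, and DSG3 lay above it.

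The stretch before the transcription start also differed among these cadherin genes, and 3 are printed because DSG3 differed in sign from DSG2, the next gene, and from DSC3, at the other end of the cluster. Each is the 250 bases before the start in RefSeq (GRCh38.p14), written in the direction of transcription, with CG dinucleotides in capitals. They are chr18:31447491-31447740 on the plus strand for DSG3, chr18:31497927-31498176 on the plus strand for DSG2, and chr18:31042743-31042992 on the minus strand for DSC3.
DSG3: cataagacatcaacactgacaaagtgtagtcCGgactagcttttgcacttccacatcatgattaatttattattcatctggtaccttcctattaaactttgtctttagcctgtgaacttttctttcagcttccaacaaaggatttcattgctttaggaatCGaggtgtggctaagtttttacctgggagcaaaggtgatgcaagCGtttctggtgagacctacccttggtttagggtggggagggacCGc
DSG2: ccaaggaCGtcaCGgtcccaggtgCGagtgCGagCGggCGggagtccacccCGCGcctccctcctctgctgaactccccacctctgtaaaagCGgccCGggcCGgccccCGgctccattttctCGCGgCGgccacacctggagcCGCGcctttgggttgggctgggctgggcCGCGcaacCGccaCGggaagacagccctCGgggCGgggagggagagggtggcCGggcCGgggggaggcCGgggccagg
DSC3: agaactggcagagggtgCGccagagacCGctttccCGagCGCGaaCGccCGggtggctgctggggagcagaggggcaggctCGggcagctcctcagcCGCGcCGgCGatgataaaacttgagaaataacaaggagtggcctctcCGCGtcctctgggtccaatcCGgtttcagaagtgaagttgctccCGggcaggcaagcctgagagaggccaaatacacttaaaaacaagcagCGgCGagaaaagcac

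The DSG3 stretch held 4 CG dinucleotides and 42.8% G and C, against 26 and 75.2% for DSG2 and 18 and 60.4% for DSC3. Over 35116 promoter windows of the same length the medians were 11 CG dinucleotides and 58.0% G and C, and 18.6% of windows were no richer in G and C than that of DSG3, against 90.7% for DSG2. RefSeq windows were found for 7 of the 9 members, all but PKP2 and PKP3. They made 9 windows in all, with a pair each for JUP and DSC2. The other 8 windows held between 59.6% G and C, in 1 of the DSC2 windows, and 78.0%, in that of DSP. Among members above 0, the PKP1 window held 67.6% and the JUP windows 63.6% and 66%, so not every such member had a window like that of DSG3. Any link between these stretches and the differences between the arrays was not tested.

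Both strands were searched for 5 short motifs, none of which contains another. The E-box CACCTG, which the repressors SNAI1, SNAI2, ZEB1 and ZEB2 can bind, was in 4 of the 9 windows, those of DSG2, DSP, 1 of JUP and 1 of DSC2, and in 17.5% of all windows. In DSG2 the matches begin 232 and 116 bases before the start. The GC box GGGCGG was in 6 of the 9 windows and in 42.6% of all. The Grainyhead-like site AACCGGTT was in none of the 9 and in 0.117% of all, the TATA box TATAAA in none and in 10.7%, and the AP-1 site TGANTCA in none and in 6.57%. The DSG3 window held none of the 5. A match in letters is a description and not a binding site.

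In the plaque, DSP, the plakin without which keratin filaments do not attach, stood at 9.21 in the EGFP-ARHGAP4 array and 9.48 in the EGFP vector array. The difference of -0.26 was shared or exceeded downwards by 28.5% of genes past the filter. JUP, plakoglobin, which is also part of adherens junctions, stood at 8.71 in the EGFP-ARHGAP4 array and 8.43 in the EGFP vector array. At 0.28, or 1.21-fold, it was the second highest of the members, and 12.3% of genes past the filter were at least as high. JUP relative to DSP was 1.46-fold higher in EGFP-ARHGAP4 cells than in EGFP vector cells.

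Plakophilins bind desmoplakin and cluster the cadherins laterally. PKP2, the plakophilin of simple epithelia, basal cells and heart, stood at 8.28 in the EGFP-ARHGAP4 array and 8.13 in the EGFP vector array. PKP3, found in most layers of stratified epithelia, stood at 6.396 in the EGFP-ARHGAP4 array and 6.28 in the EGFP vector array. PKP1, which prevails in the upper layers of stratified epithelia, stood at 2.85 in the EGFP-ARHGAP4 array and 2.60 in the EGFP vector array, below the filter in both. All 3 plakophilins were therefore slightly above 0, with differences of 0.15 for PKP2, 0.12 for PKP3 and 0.25 for PKP1. Between 14.2% and 24.9% of genes past the filter were at least as high as each of them.

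A scale for differences of this size came from genes with several features. Features of these genes were not screened for identical values, and such copies would tend to make the spread given next too small. Over the 336 such genes past the filter, the pooled within-gene SD of the features' differences between the arrays was 0.21. This is agreement between probes on the same 2 arrays and not variation between cultures, which would be added to it. Of the 9 members, 6 differed by more than 0.21 and only DSG3 by more than double that value. The opposite signs of the 2 small groups, DSG2, DSC3, DSC2 and DSP from -0.29 to -0.13 and JUP and the plakophilins from 0.12 to 0.28, are therefore descriptions of these 2 arrays at the scale of probe disagreement.

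**Figure D3:**
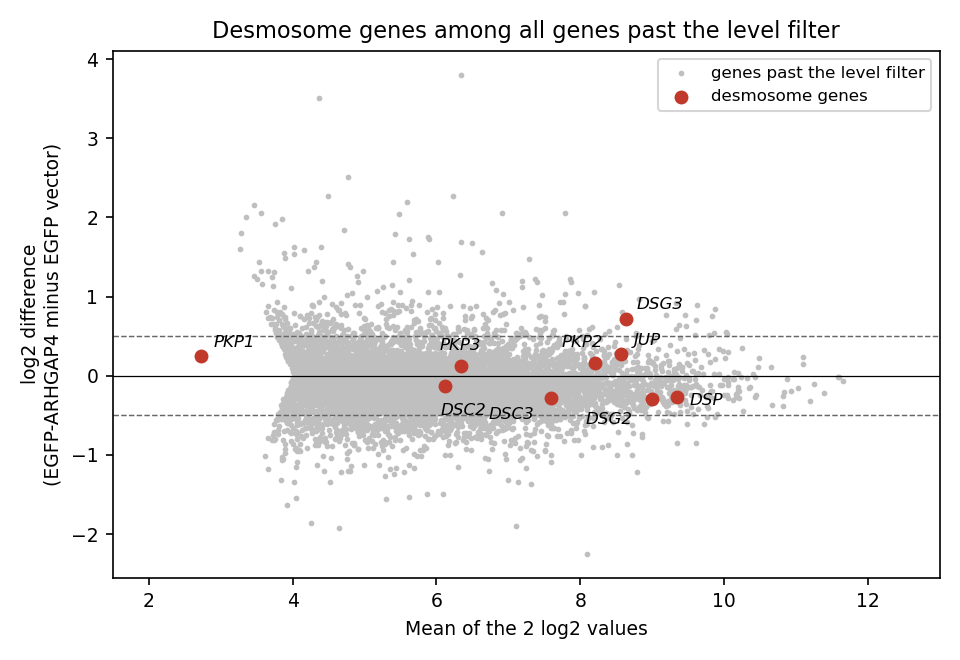
Log2 difference, EGFP-ARHGAP4 minus EGFP vector (vertical axis), against the mean of the 2 log2 values (horizontal axis) for the 7685 genes past the level filter (grey) and the 9 desmosome genes (red); 1 array per group. Dashed lines mark differences of 0.5 either way, and DSG3 at 0.71 is the only member outside them.

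The members that lie outside chromosome 18 were set beside their surroundings in the same way. The 20 nearest genes past the filter had a median of -0.19 around DSP on chromosome 6, 0.02 around JUP on chromosome 17 and -0.12 around PKP1 on chromosome 1. Around PKP2 on chromosome 12 the median was -0.24, and around PKP3, close to the end of chromosome 11, it was 0.06 over 16 genes. DSP and PKP3 were thus close to the median of their neighbours. JUP lay above it, and PKP1 and PKP2 lay on the other side of 0 from it. No member lies on chromosome 10, where the 71 genes past the filter between DIP2C and ZNF37A, both included, centred on -0.82.

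Other desmosome genes and plakins linked to desmosomes numbered 7 measured of 8 listed, with PERP not analysed here. The median of the 7 was -0.03. In EGFP-ARHGAP4 cells 1 of the 7 was higher by at least 0.5 and none lower, beside 4.25% and 6.47% of all genes. The gene was PPL, periplakin, a plakin of the desmosomal plaque and the cornified envelope, which stood at 5.48 in the EGFP-ARHGAP4 array and 4.89 in the EGFP vector array, 1.51-fold higher. Its partner envoplakin, EVPL, stood at 5.53 in the EGFP-ARHGAP4 array and 5.56 in the EGFP vector array. PKP4, an armadillo protein of both desmosomes and adherens junctions, stood at 6.42 in the EGFP-ARHGAP4 array and 6.72 in the EGFP vector array, a difference of -0.30 that set it apart in sign from PKP1, PKP2 and PKP3. CDSN, corneodesmosin of the upper epidermis, averaged 3.23 in the EGFP-ARHGAP4 array and 3.20 in the EGFP vector array over 4 features, 3 of which held identical values. DSC1, DSG1 and DSG4, given above, complete the 7.

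Keratins, the filaments that desmosomes anchor, had a median of 0.02 over 9 measured of 12 listed. Over the 6 past the filter the median was -0.04, so its sign changed. The median of the 9 was 0.11 with quantile normalization and 0.14 with loess. None was higher by at least 0.5 and 1 was lower by that much, beside 4.25% and 6.47% of all genes. That lower gene was KRT14, at 6.96 in the EGFP-ARHGAP4 array and 9.21 in the EGFP vector array, 4.76-fold lower, although its feature can take up RNA of other type I keratins. KRT5, the basal type II keratin that pairs with KRT14, stood at 8.34 in the EGFP-ARHGAP4 array and 8.33 in the EGFP vector array. KRT14 and DSG3 both mark basal cells of stratified epithelia, and in these 2 arrays they lay on opposite sides of 0. All 4 measured luminal mammary markers were above 0, with a median of 0.38, beside 47.1% of all genes at or above 0. EPCAM, an epithelial adhesion molecule, was 2.30-fold higher, at 7.79 in the EGFP-ARHGAP4 array and 6.58 in the EGFP vector array. The keratins KRT19, KRT8 and KRT18 were at 0.41, 0.36 and 0.08, with KRT19 below the filter in both arrays. Summed over the 4, the log2 values came to 24.0 in the EGFP-ARHGAP4 array and 21.9 in the EGFP vector array. EPCAM, with a difference of 1.20, added the most to that gap, and such a sum over different probes is not a total signal. The 3 measured basal markers, KRT14, KRT5 and MYLK, summed to 18.1 in the EGFP-ARHGAP4 array and 20.3 in the EGFP vector array, a gap that KRT14 sets. The part of these marker differences in those of DSG3 and of the claudins below was not tested.

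The tight junction list was the one with most members past 0.5. Of 16 measured genes 4 were higher by at least 0.5 and 2 lower, with a median of 0.19, against 4.25% higher and 6.47% lower over all genes. The sealing claudins CLDN7 and CLDN1 were 2.33-fold and 1.96-fold higher, CLDN4 was 1.66-fold higher below the level filter in both arrays, and OCLN, occludin, was 1.51-fold higher. PARD3, a polarity scaffold, was 1.91-fold lower and lies in the stretch of chromosome 10 named above. CGNL1, the cingulin relative, was 1.55-fold lower, below the filter in both arrays. The difference of DSG3, 0.71, falls between those of OCLN, 0.59, and CLDN1, 0.97.

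**Figure D4:**
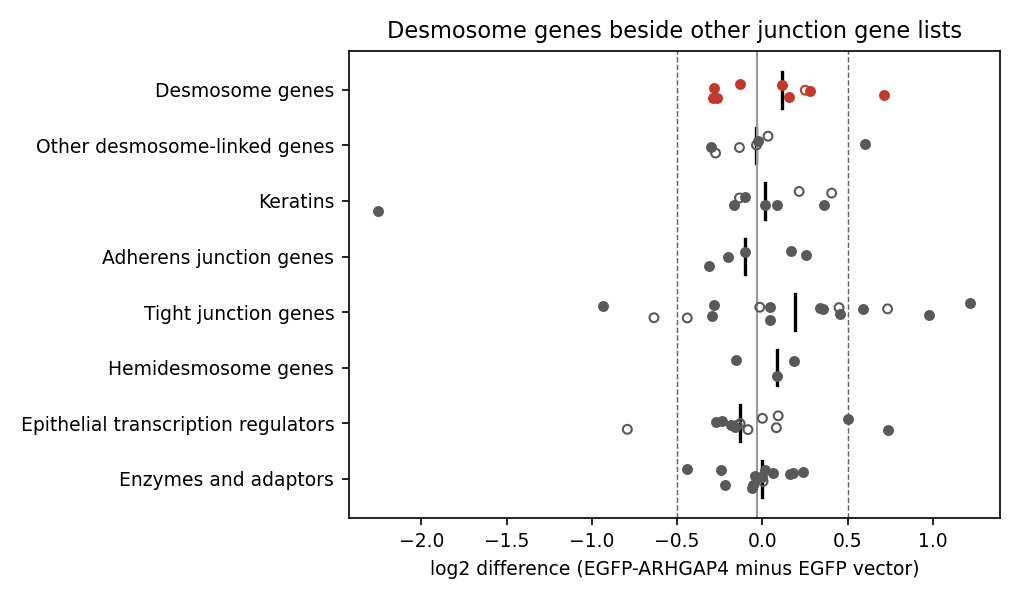
Log2 difference, EGFP-ARHGAP4 minus EGFP vector (horizontal axis), of each measured gene of 8 lists (rows); filled points passed the level filter, open points did not, thick black ticks are list medians, the grey line is the median of all genes and dashed lines mark 0.5 either way. Points are spread vertically within a row only for legibility. The desmosome row has 1 gene, DSG3, beyond 0.5, and the tight junction row has 6.

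Adherens junctions, which share JUP with desmosomes, were measured for 5 of 12 listed genes, and the classical cadherins and the alpha-, beta- and p120-catenins were not analysed here. None of the 5 differed by 0.5, beside 4.25% of all genes higher and 6.47% lower by that much, and the median was -0.10. The largest differences were those of NECTIN3, a cell adhesion molecule of the immunoglobulin superfamily, at -0.31 and VCL, vinculin, at 0.26. Of 9 hemidesmosome genes, the junctions that anchor keratins to the basement membrane, 3 were measured, with a median of 0.08, or 0.19 with quantile normalization and 0.20 with loess. CD151, a tetraspanin, was at 0.19 and DST, the gene of the plakin BPAG1, at -0.16. No gap junction gene was analysed here.

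Of 16 listed transcription regulators of epithelial genes 13 were measured, 6 of them past the filter, with a median of -0.13. The list holds both factors of epithelial differentiation and repressors of epithelial genes, so the sign of its median has no single reading. In EGFP-ARHGAP4 cells 2 of the 13 were higher by at least 0.5 and 1 was lower, beside 4.25% and 6.47% of all genes. GRHL3, a Grainyhead-like factor of epidermal differentiation, stood at 4.68 in the EGFP-ARHGAP4 array and 3.94 in the EGFP vector array, 1.67-fold higher. Only its EGFP-ARHGAP4 value passed the filter. Its relatives GRHL1 and GRHL2, at -0.15 and -0.13, lay below the filter in both arrays. KLF4, a factor of epithelial differentiation, was 1.42-fold higher. ZEB1, a repressor of epithelial genes, stood at 3.09 in the EGFP-ARHGAP4 array and 3.88 in the EGFP vector array, below the filter in both, and lies in the same stretch of chromosome 10 as PARD3. SNAI2, a repressor of cell adhesion genes for which MCF-10A cells had values far above the filter in both arrays, stood at 9.87 in the EGFP-ARHGAP4 array and 10.11 in the EGFP vector array. It is named after its value was seen. Any part of these regulators in the differences of the desmosome genes was not tested.

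Enzymes and adaptors known to act on desmosomal proteins were measured for 14 of 20 listed genes. None differed by 0.5, beside 4.25% of all genes higher and 6.47% lower by that much. Their median was -0.004, and it changed sign to 0.08 with quantile normalization and 0.09 with loess. The largest differences were those of ERBIN, an adaptor that binds desmosomal proteins, at -0.44 and ADAM9, a membrane metalloprotease, at -0.24.

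By Euclidean distance over the pair of log2 values, the genes past the filter nearest to DSG3 were PDCD4, MEF2D and NOP53, at distances of 0.11, 0.17 and 0.20, with differences of 0.80, 0.47 and 0.62. Those nearest to DSG2 were NETO2, DERL1 and SUPT16H, at distances of 0.04, 0.04 and 0.05. With 2 arrays such likeness rests on 2 values a gene and describes level as much as difference.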

How the data were processed

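Total RNA of 2 MCF-10A lines was amplified to sense-strand cDNA, labelled with biotin and hybridised to Affymetrix arrays, per the labels' protocols. The authors deposited 1 normalized log2 value for each of 44629 features and array. Software, summarisation, normalization and genome build were not given in the sources used here. Base 2 was read from the values, since the highest, 12.8, exceeds both the natural log (11.1) and the log10 (4.82) of a 16-bit reading. The third quartile was 4.60 in the EGFP-ARHGAP4 array and 4.66 in the EGFP vector array. The number of arrays limits the precision.

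Platform annotation of 2020 named 15835 features, all matched by Entrez identifier to RefSeq genes (GRCh38.p14), which gave names, chromosomes and gene order. Features of the same gene were averaged, giving 14812 genes. Differences were counted at a log2 size of 0.5. Neighbouring genes were taken as up to 10 past the filter on each side of a member. There was no test, since each group has 1 array. Members, lists and thresholds were chosen with earlier results of these data known; the windows of neighbouring genes, the ratios between members, the promoter motifs and the plakin and armadillo families were chosen after the values were seen. The rule for named genes took all members, ARHGAP4, list members at 0.5 or more (otherwise the 2 largest), all other measured desmosome genes, KRT5, KRT14 and the neighbours of the cadherin cluster. It also took the 3 genes nearest in both values to DSG3 and to the lowest member.

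Alternatives were quantile normalization, centring, loess (span 0.3), the feature with the highest mean level, other filters and other thresholds. Calculations ran in Python 3.11.15 (numpy 2.4.6, pandas 2.3.3, statsmodels 0.14.6), with plots from matplotlib 3.10.9. The scalings were also run on simulated data. With a simulated offset and level trend, recovery of the changes was required of quantile normalization and loess but not of centring. The simulated spread and changes were preset and not estimated from these arrays.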

Additional observations from a re-analysis of the deposited data

How the results depend on the processing

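All 9 desmosome genes kept the sign of their difference under all 4 alternatives of scaling and feature choice. DSG3 ranged from 0.71 to 0.84, JUP from 0.28 to 0.40, PKP2 from 0.15 to 0.28, PKP3 from 0.12 to 0.22 and PKP1 from 0.245 to 0.251. DSG2 ranged from -0.29 to -0.16, DSC3 from -0.28 to -0.16, DSP from -0.26 to -0.14 and DSC2 from -0.13 to -0.03. Centring moved nothing because the median feature difference was 0, and the choice of feature cannot move members that have 1 feature each. Quantile normalization and loess moved the median of genes past the filter from -0.10 to -0.02 and -0.01, and that of all genes by 0.03. The differences of the 8 members past the filter moved upwards under both, and that of PKP1 moved slightly downwards. In the deposited values the count of members higher was 0 in place of 1 at a log2 threshold of 1, and it was 1 at 0.3. JUP joined DSG3 beyond 0.3 after quantile normalization and after loess. No member was lower at any of the 3 thresholds. The members' median was 0.20 after quantile normalization and 0.22 after loess. With the filter at the 0.25 quantile 9 members passed, and at the 0.75 quantile 8 did. Of the other genes named, EVPL and APC changed sign after quantile normalization and loess. No paired analysis was possible because each group has 1 array.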

Other observations

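The plakin family, to which DSP belongs, was spread on both sides of 0 in all 7 of its measured members. Besides PPL, EPPK1, epiplakin, a keratin-binding plakin, was higher by at least 0.5: it stood at 6.46 in the EGFP-ARHGAP4 array and 5.73 in the EGFP vector array, 1.65-fold higher. MACF1, a plakin that joins actin and microtubules, stood at 6.19 in the EGFP-ARHGAP4 array and 6.64 in the EGFP vector array, a difference of -0.45. PLEC, plectin, which links keratins to hemidesmosomes, was at 0.08. The median of the 7 was -0.03, that of EVPL, which changed sign after quantile normalization. With PPL and EPPK1, 2 of 7 plakins were higher by at least 0.5, beside 5.15% of genes past the filter.

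Armadillo-repeat relatives of JUP and the plakophilins were measured for 4 of 7 genes. None differed by 0.5, beside 4.25% of all genes higher and 6.47% lower by that much. ARVCF, a p120-catenin relative, was at 0.35 and APC2 at 0.23, while PKP4 was at -0.30 and APC, a scaffold of beta-catenin degradation, at -0.04. Both families were chosen after values were seen.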
